A study of Sus scrofa with 41 samples.

Results

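The genes described here are 10 genes of the major histocompatibility complex (MHC, called SLA in pigs) and of its regulation, measured by RNA-seq in the psoas major, the tenderloin muscle, of 41 purebred boars. They were chosen by name with the breed differences and feed conversion slopes of these same pigs already known, so those differences and slopes are given below as description. Of the 10, 9 were found among the 25880 genes of the deposited count files, and all 9 passed the filter on low counts in every fit. The remaining one, B2M, the light chain of class I molecules, is not analysed here, because its identifier in the gene table matched no row. SLA-DRA was matched through the symbol HLA-DRA that the table gives it, and ENSSSCG00000001229, which was listed among the MHC genes by identifier, has no symbol in the tables used here and is called by its identifier.

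The pigs were 13 Danbred Duroc and 28 Danbred Landrace boars, all uncastrated, raised at 1 breeding station on the same feed and sampled at slaughter. Feed conversion ratio (FCR) ranged from 1.83 to 2.18 in Duroc and from 1.92 to 2.25 in Landrace. The study's methods describe FCR as growth divided by feed, whereas the labelled values all lie above 1, as feed per unit of gain does. From the values, a higher FCR is read here as more feed for the same growth. Age ranged from 131 to 156 days in Duroc and from 147 to 166 days in Landrace, and the RNA integrity number (RIN), a score of how intact the RNA was, from 7.0 to 8.8 and from 6.5 to 8.3. The labels also give 5 batches, of which the first holds a single Duroc pig and no Landrace pig. The files assign between 22188911 and 25954816 read pairs per pig to genes, and no 2 libraries agreed within counting noise.

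Cells show fragments of their own proteins on MHC class I molecules, which almost every cell type makes, and the fragments reach class I in the endoplasmic reticulum through the TAP transporter. MHC class II molecules show fragments of engulfed proteins and are made mainly by macrophages, dendritic cells and B cells. CIITA is the master coactivator of class II genes and works with the RFX complex, of which RFX5 is a DNA-binding subunit. Muscle fibres themselves make little MHC at rest, so the class II RNA of a muscle homogenate may come largely from other cells. Which cells it came from here was not measured. In such bulk tissue, fewer cells of a type and less RNA per cell cannot be told apart.

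The fibre markers matched in these files, ACTA1 and CKM, 2 of the 6 listed, summed to a median of 125215 CPM (counts scaled to the library's total) in Duroc and 133020 CPM in Landrace, the level of skeletal muscle. All 14 leukocyte markers were detected, with a summed level from 45.8 to 155 CPM in Duroc and from 33.4 to 280 CPM in Landrace. Markers that define dendritic cells, of which 3 of the 5 listed were matched, summed to at most 3.08 CPM. Those of B cells, 6 of 6 matched, summed to at most 2.52 CPM, and those of T cells, 6 of 7 matched, to at most 19.3 CPM.

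Breed levels come first. ENSSSCG00000001229 ranged in Duroc from 256 to 851 CPM with a median of 422 CPM, and in Landrace from 207 to 744 CPM with a median of 382 CPM. The groups overlapped over most of their range, and 7 of 28 Landrace pigs lay below the lowest Duroc pig. With FCR, RIN, age and batch held equal, the Landrace minus Duroc difference was −0.34 ± 0.21 log2 (SE). It was −0.51 log2 with library size only (edgeR, FDR 0.068) and −0.012 log2 without batch, a model added after the data were seen. TAP1, a subunit of the transporter that feeds peptides to class I, ran from 6.97 to 27.9 CPM with a median of 11.6 CPM in Duroc and from 4.62 to 36.6 CPM with a median of 12.9 CPM in Landrace, a difference of 0.18 ± 0.33 log2, which became 0.66 log2 without batch (edgeR, FDR 0.087). TAP1 was the most spread of the members in Landrace, where its coefficient of variation was 56.4%, against 44.1% in Duroc.

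**Figure D1:**
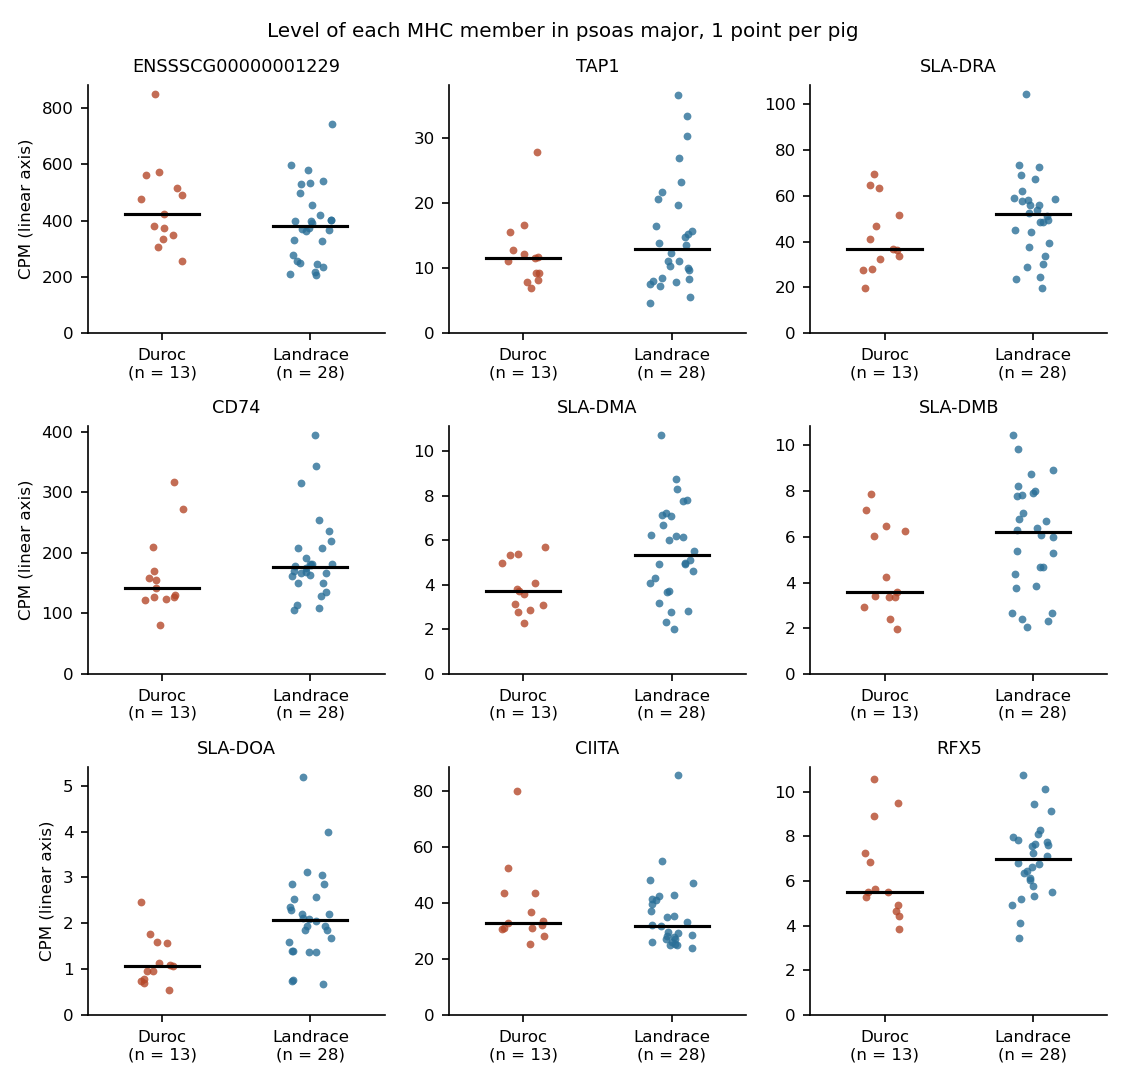
Level of the 9 members in CPM (linear axis from 0) in each of 13 Duroc and 28 Landrace pigs, with 1 point per pig and a bar at the breed's median. The breeds overlap for every member, and the median of SLA-DOA is 1.07 CPM in Duroc and 2.07 CPM in Landrace.

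Among the class II genes, SLA-DRA, the alpha chain of the DR molecule, had a median of 36.7 CPM in Duroc (19.8 to 69.5 CPM) and of 52.0 CPM in Landrace (19.7 to 104 CPM). CD74, the invariant chain that escorts new class II molecules, had a median of 142 CPM in Duroc (80.9 to 317 CPM) and of 177 CPM in Landrace (106 to 394 CPM). In both genes most Landrace pigs, 22 and 23 of 28, lay above the Duroc median, yet the adjusted differences were 0.019 ± 0.25 and 0.025 ± 0.18 log2. In the model without batch SLA-DRA differed by 0.43 log2 and CD74 by 0.30 log2. Within batches 2, 3, 4 and 5 the plain difference of mean log2 CPM of SLA-DRA was 0.47, 0.73, −0.28 and −0.48 log2. That of CD74 was 0.027, 0.54, 0.21 and −0.15 log2.

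SLA-DMA and SLA-DMB form DM, which swaps the invariant chain remnant for an antigen peptide. SLA-DMA had a median of 3.73 CPM in Duroc (2.31 to 5.67 CPM) and of 5.32 CPM in Landrace (2.04 to 10.7 CPM), with 13 of 28 Landrace pigs above the highest Duroc pig. SLA-DMB had medians of 3.57 CPM (1.96 to 7.86 CPM) and 6.20 CPM (2.04 to 10.4 CPM). Their adjusted differences were 0.019 ± 0.24 and 0.14 ± 0.31 log2. Without batch they were 0.54 log2 for SLA-DMA (edgeR, FDR 0.095) and 0.56 log2 for SLA-DMB (FDR 0.14), and with no covariates, also added after the data were seen, 0.51 log2 (FDR 0.046) and 0.40 log2 (FDR 0.21). The breed gap of both genes turned with the batch: SLA-DMA was higher in Landrace by 0.67 log2 in each of batches 2 and 3 and differed by −0.13 and −0.29 log2 in batches 4 and 5, and SLA-DMB gave 0.64, 0.79, −0.42 and −0.35 log2 in the same order. These within-batch values are differences of mean log2 CPM without other covariates, over 2 to 4 Duroc and 2 to 12 Landrace pigs a batch.

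SLA-DOA, the alpha chain of DO, which restrains DM, showed the largest breed difference of the members. Its level ran from 0.556 to 2.47 CPM with a median of 1.07 CPM in Duroc and from 0.675 to 5.19 CPM with a median of 2.07 CPM in Landrace, and 25 of 28 Landrace pigs lay above the Duroc median. The adjusted difference was 0.70 ± 0.32 log2, and without batch it was 0.95 log2 (edgeR, FDR 0.0096). Within batches 2, 3 and 4 it was 0.87, 1.18 and 0.97 log2, and in batch 5 only 0.060 log2. The gene had few reads, between 15 and 137 per pig.

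The regulators differed little. CIITA had a median of 32.9 CPM in Duroc (25.5 to 79.9 CPM) and of 32.0 CPM in Landrace (23.8 to 85.7 CPM), a difference of −0.022 ± 0.12 log2. RFX5 had medians of 5.52 CPM (3.85 to 10.6 CPM) and 6.97 CPM (3.45 to 10.8 CPM), a difference of 0.013 ± 0.15 log2.

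By edgeR, 0 of the 9 members passed a false discovery rate (FDR) of 0.1 for breed, where 33.1% of the 11146 genes tested did. SLA-DOA alone had an unadjusted p below 0.05, and its FDR was 0.105. DESeq2 called SLA-DOA (FDR 0.091) and so did limma (FDR 0.044). The median difference of the members was 0.019 log2 and that of all genes −0.0024 log2. Scaling by library size alone moved the median of all genes to −0.18 log2 and left SLA-DOA as the single member above 0, at 0.53 log2, so the sign of the smaller positive differences changed with the scaling. SLA-DRA and SLA-DMA also fell below 0 without the 2 pigs of RIN below 7, at −0.0022 and −0.021 log2.

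Whether these breed values reflect transcript levels alone cannot be told apart from how well each pig's own alleles aligned. The reads were aligned to Sscrofa11.1, an assembly made from a Duroc pig, and class I genes are among the most variable genes of a genome and have near-identical copies. Between 2.48% and 3.75% of pairs per pig mapped to several places and were not counted for any gene, with a median of 2.85% in Duroc and 2.79% in Landrace. That share is over the whole library and cannot show how well the reads of MHC genes aligned. Allele by allele counts were not analysed here.

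The fitted slopes on FCR had opposite signs in the breeds for all members but CIITA, and none of them passed the FDR threshold in edgeR. In Duroc 8 of 9 slopes were above 0, and in Landrace 9 of 9 were below 0. A slope is the log2 change per 0.1 FCR, fitted in each breed apart with RIN, age and batch held equal. The same pair of signs, up in Duroc and down in Landrace, was held by 28.1% of the 10458 genes tested in both breeds. The median slope of the members was 0.29 log2 in Duroc and −0.25 log2 in Landrace, against 0.020 and −0.00019 log2 for all genes.

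**Figure D2:**
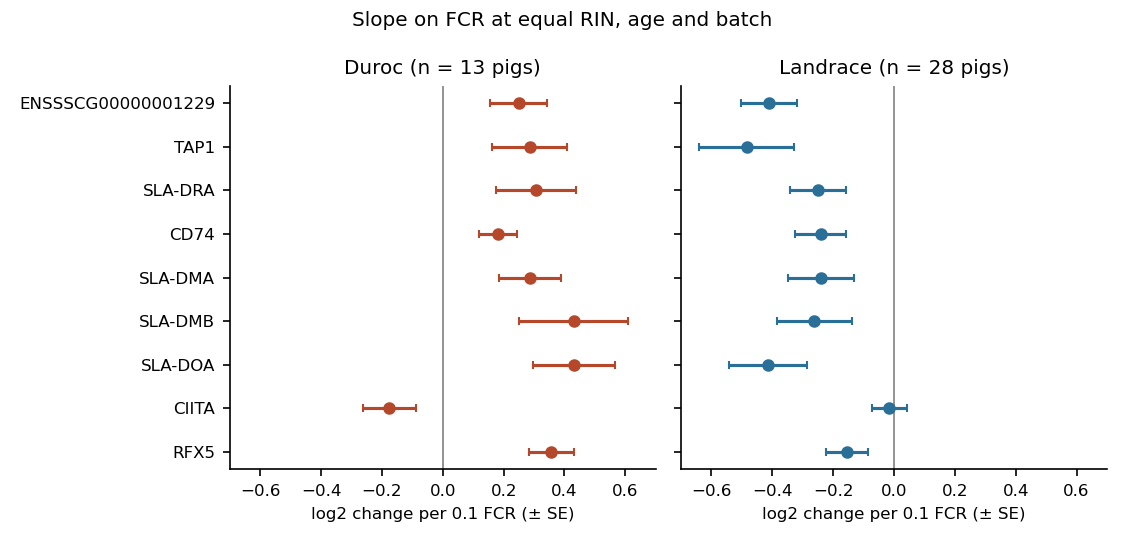
Slope of each member on FCR, as log2 change per 0.1 FCR with its SE, fitted in 13 Duroc pigs (left) and 28 Landrace pigs (right). Slopes other than that of CIITA lie above 0 in Duroc, from 0.18 to 0.43, and below 0 in Landrace, from −0.48 to −0.16.

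ENSSSCG00000001229 had a slope of 0.25 ± 0.093 log2 in Duroc and of −0.41 ± 0.093 log2 in Landrace. TAP1 sloped by 0.29 ± 0.12 log2 in Duroc and by −0.48 ± 0.16 log2 in Landrace, the steepest fall of the members. The plain levels were as follows. In Landrace the median of ENSSSCG00000001229 was 418 CPM in the 13 pigs below the breed's median FCR of 2.10 and 331 CPM in the 13 pigs above it, and that of TAP1 was 13.8 and 10.3 CPM, so both were lower in the pigs of higher FCR. In Duroc the median of ENSSSCG00000001229 was 450 CPM in the 6 pigs below the median FCR of 1.94 and 437 CPM in the 6 above it, and that of TAP1 was 10.4 and 11.98 CPM. Without covariates the Duroc slope of ENSSSCG00000001229 was 0.10 ± 0.12 log2.

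For class II, the slopes in Duroc were 0.31 ± 0.13 log2 for SLA-DRA, 0.18 ± 0.062 for CD74, 0.29 ± 0.10 for SLA-DMA, 0.43 ± 0.18 for SLA-DMB and 0.43 ± 0.14 for SLA-DOA. In Landrace they were −0.25 ± 0.091 log2 for SLA-DRA, −0.24 ± 0.085 for CD74, −0.24 ± 0.11 for SLA-DMA, −0.26 ± 0.12 for SLA-DMB and −0.41 ± 0.13 for SLA-DOA. Without covariates the Duroc slopes kept their sign and were smaller, at 0.16 ± 0.13 log2 for SLA-DRA and 0.019 ± 0.13 for CD74. The plain Duroc medians below and above the median FCR were 36.6 and 36.6 CPM for SLA-DRA, 149.5 and 148.4 CPM for CD74, 3.62 and 3.66 CPM for SLA-DMA, 3.81 and 3.48 CPM for SLA-DMB, and 0.962 and 1.02 CPM for SLA-DOA, so they did not rise together. In Landrace the median of SLA-DRA was 52.7 and 49.3 CPM.

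RFX5 had the slope with the smallest relative error in Duroc, 0.36 ± 0.073 log2, and it showed in the plain levels. The 3 Duroc pigs of highest FCR, 2.08, 2.11 and 2.18, carried 8.92, 9.49 and 10.6 CPM, which were the highest RFX5 levels among the Duroc pigs. The other 10 Duroc pigs lay between 3.85 and 7.24 CPM. Its slope in Landrace was −0.16 ± 0.069 log2, and its Landrace median was 6.74 CPM below the median FCR and 6.83 CPM above it. With batch as a number the Landrace slope was −0.089 log2 and without batch −0.091 log2. CIITA went the other way in Duroc, with −0.18 ± 0.086 log2, and was near 0 in Landrace, with −0.016 ± 0.057 log2.

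**Figure D3:**
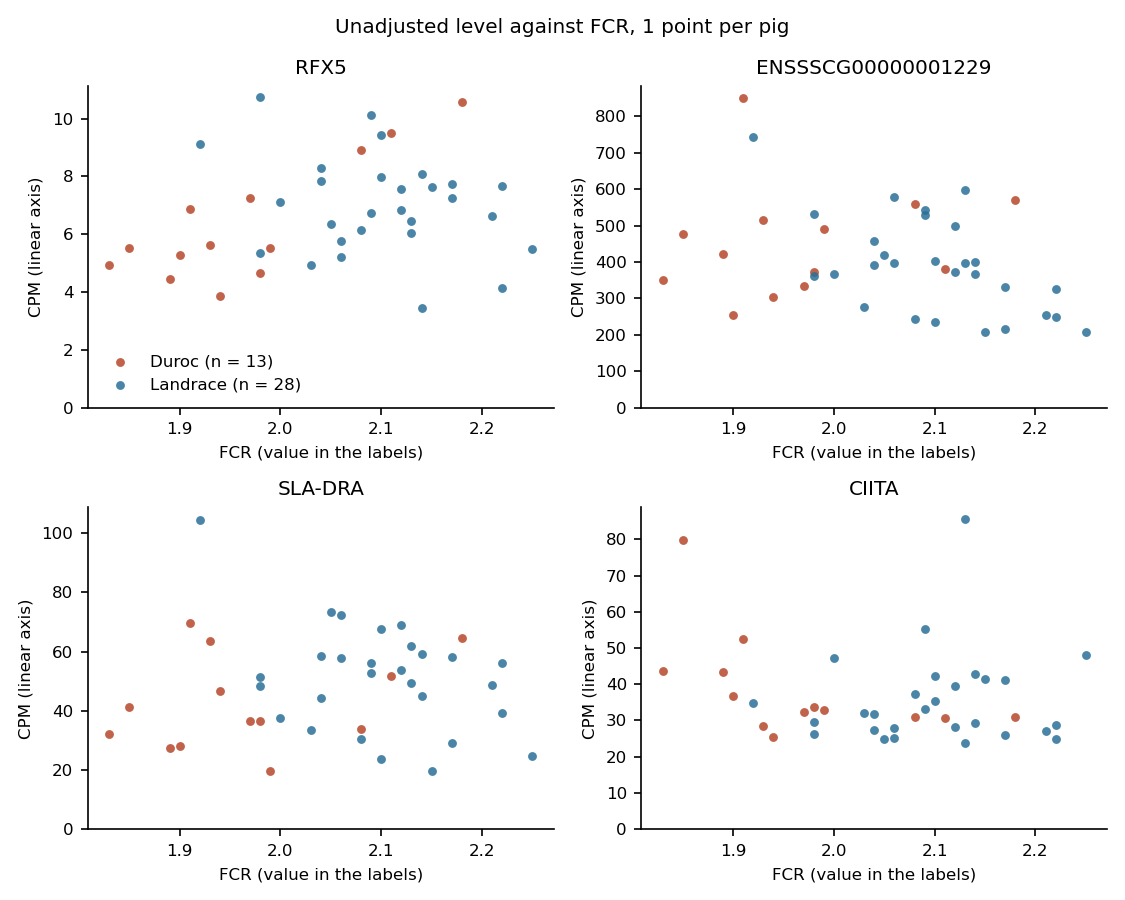
Unadjusted CPM (linear axis from 0) of RFX5, ENSSSCG00000001229, SLA-DRA and CIITA against FCR in 13 Duroc and 28 Landrace pigs, 1 point per pig. The 3 Duroc pigs with the highest FCR have the highest Duroc RFX5 levels, 8.92 to 10.6 CPM.

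No gene of the whole table passed the FDR threshold for FCR in edgeR: the share called was 0% of 10509 genes in Duroc and 0% of 11020 genes in Landrace, with 564 and 606 genes at an unadjusted p below 0.05. At an unadjusted p below 0.05, 8 of 9 members had a slope above 0 in Duroc, as had 3.25% of all genes, and 8 of 9 had one below 0 in Landrace, as had 3.01%. CIITA was the exception both times. The members were listed with such slopes known, so these counts carry no weight as a test. DESeq2 called 10 genes in Duroc, none of them a member, and 2 in Landrace, 1 of them ENSSSCG00000001229 (FDR 0.071), and limma called 0 in each breed, with 564 and 623 genes at an unadjusted p below 0.05.

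The difference of slopes, Landrace minus Duroc, was −0.44 ± 0.094 log2 for RFX5, −0.76 ± 0.20 for SLA-DOA, −0.65 ± 0.22 for TAP1 and −0.48 ± 0.14 for ENSSSCG00000001229. For the other class II genes it lay between −0.43 and −0.28 log2, and for CIITA it was 0.16 ± 0.091. By edgeR the FCR by breed term passed FDR 0.1 in 0% of 11146 genes, the lowest FDR being that of RFX5 at 0.40. At an unadjusted p below 0.05 the term held 5 of 9 members and 5.22% of all genes. DESeq2 called RFX5 (FDR 0.037) and no other gene, and limma called 0 with 580 genes at an unadjusted p below 0.05. This term compares slopes that were known when the members were listed, so the members' values and counts carry no weight as a test.

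The Duroc slopes rest on few pigs and on the model. In 1 fit over both breeds with a slope for each, the Duroc slopes were 0.043 log2 for CD74, 0.093 for SLA-DMA, 0.11 for SLA-DRA, 0.091 for ENSSSCG00000001229 and 0.31 for RFX5, and the count of members at an unadjusted p below 0.05 in Duroc, 8 in the fit of Duroc alone, was 3. That count was 2 without age in the model, 2 without Duroc replicate 11 and 3 without Duroc replicate 6. It was also 3 with the mean level of 14 leukocyte markers added and 3 with no covariates. Over all genes the count was 564 of 10509 in the fit of Duroc alone and 808 of 11146 in the fit over both breeds. Of 10503 to 10525 genes it was 739 without age, 687 without replicate 11, 176 without replicate 6, 550 with the marker level and 1643 with no covariates. The fit of Duroc alone leaves 5 residual degrees of freedom, and the pig that is alone in batch 1 adds nothing to it. Leaving out Duroc replicate 11, the pig of lowest FCR, lowered the slope of SLA-DOA to 0.28 log2, of SLA-DMA to 0.13, of SLA-DMB to 0.19 and of CD74 to 0.11, and raised that of ENSSSCG00000001229 to 0.46. Without Duroc replicate 6, the pig of highest FCR, TAP1 sloped by 0.13 log2 and SLA-DMA by 0.40. RFX5 stayed between 0.33 and 0.40 log2 whichever Duroc pig was left out, and no member changed sign in Duroc.

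In Landrace the count of members at an unadjusted p below 0.05, 8 in the reported fit, was 3 without Landrace replicate 11, the pig of lowest FCR, and 5 without replicate 8, 24 or 25. It was 5 with library size only, 5 with the mean level of 14 leukocyte markers added to the model, and 4 with no covariates or without batch. Over all genes the count was 606 of 11020 in the reported fit, 894 with library size only and 559 with the marker level. It was 395 with no covariates and 593 without batch. Without replicate 11 it was 507 of 11033 genes, and without replicate 8, 24 or 25 from 470 to 486 of 11031 to 11081. With single Landrace pigs left out CIITA lay between −0.067 and 0.032 log2, and the other members kept their sign. ENSSSCG00000001229 stayed between −0.45 and −0.38 log2 and TAP1 between −0.55 and −0.43 log2. Within batches 2, 3 and 5, of 12, 7 and 7 Landrace pigs, plain slopes were −0.52, −0.26 and −0.18 log2 for TAP1, and −0.34, −0.47 and −0.23 log2 for SLA-DOA. ENSSSCG00000001229 gave −0.45, −0.0062 and −0.24 log2. SLA-DRA, SLA-DMB and CD74 were below 0 in each of the 3 batches, and SLA-DMA, RFX5 and CIITA turned in batch 5, to 0.28, 0.053 and 0.037 log2. No Duroc batch holds more than 4 pigs, so no within-batch slope is given there.

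The slopes of leukocyte markers had mostly the signs of the members. All 14 were above 0 in Duroc, as were 57.9% of all genes, with a median of 0.34 log2, and 13 of 14 were below 0 in Landrace, as were 50.15% of all genes, with a median of −0.22 log2. None passed FDR 0.1 in edgeR in either breed. At an unadjusted p below 0.05 there were 2 above 0 in Duroc and 4 below 0 in Landrace, beside 3.25% and 3.01% of all genes. LCP1, a leukocyte actin-bundling protein, had the smallest p of them in both breeds, with slopes of 0.51 ± 0.096 and −0.39 ± 0.14 log2. The paper's own DESeq2 fit of Duroc lists LCP1 as up at an FDR below 0.1. The markers were chosen with such earlier results known, so the rank of LCP1 and the counts of markers carry no weight as a test. CD3E, a T cell receptor chain, had slopes of 0.43 ± 0.19 and −0.45 ± 0.16 log2. Across the 41 pigs, with each breed's mean removed, the mean log2 CPM of these markers correlated most closely with SLA-DMB (Pearson r = 0.89, Spearman rho = 0.91), SLA-DRA (r = 0.84, rho = 0.83) and SLA-DMA (r = 0.81, rho = 0.79). All 3 had a permutation p of 1e-05 for both measures, the smallest that 100000 permutations within breed can give, and 3e-05 after Benjamini-Hochberg adjustment over the 9 correlations. SLA-DOA followed with r = 0.66 and rho = 0.55 (permutation p 3e-05 and 0.00025, adjusted 6.8e-05 and 0.00045), and CD74 with r = 0.53 and rho = 0.49 (permutation p 0.00031 and 0.0013, adjusted 0.0004 and 0.0017).

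TAP1 had r = 0.61 and rho = 0.62 (permutation p 8e-05 for each, adjusted 0.00014 and 0.00018), and ENSSSCG00000001229 r = 0.56 and rho = 0.52 (permutation p 0.00027 and 0.00072, adjusted 0.0004 and 0.0011). Within the 13 Duroc pigs alone r was 0.28 for TAP1 (permutation p 0.37) and 0.24 for ENSSSCG00000001229 (permutation p 0.43), and within the 28 Landrace pigs 0.69 and 0.66 (permutation p 9e-05 and 8e-05). The difference between the breeds was not tested. Correlations of the regulators were weaker. RFX5 had r = 0.23 and rho = 0.24 (permutation p 0.15 and 0.13, adjusted 0.15 and 0.13), and CIITA r = −0.28 and rho = −0.40 (permutation p 0.074 and 0.011, adjusted 0.083 and 0.012). After removal of RIN, age and batch CIITA had r = −0.087 (permutation p 0.61), and within batches 2, 3 and 5 its r was 0.048, −0.45 and 0.18. Without the 2 pigs farthest from the median marker level r lay between 0.44 and 0.89 for the 7 members other than the regulators. Within batches 2, 3 and 5 r was 0.86, 0.84 and 0.87 for SLA-DMB and 0.17, 0.32 and 0.78 for ENSSSCG00000001229. Marker level and members come from the same libraries and share their scaling.

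**Figure D4:**
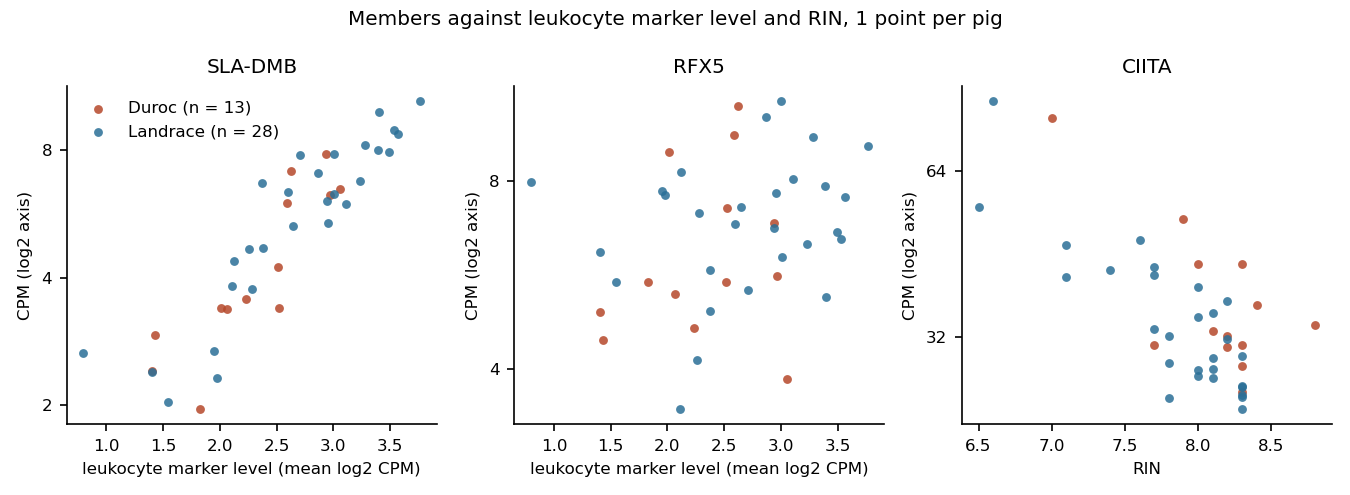
SLA-DMB and RFX5 against the leukocyte marker level (mean log2 CPM of 14 markers), and CIITA against RIN, 1 point per pig, with CPM on a log2 axis. SLA-DMB rises with the marker level in both breeds (r = 0.89), RFX5 spreads without a clear trend (r = 0.23), and CIITA is highest in pigs of low RIN.

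With the leukocyte marker level added to the model the class II slopes shrank in both breeds. SLA-DRA went from 0.31 to 0.10 log2 in Duroc and from −0.25 to −0.14 in Landrace, and SLA-DMB from 0.43 to 0.18 and from −0.26 to −0.099. RFX5 changed little, at 0.38 log2 in Duroc and −0.15 in Landrace. In Duroc TAP1 and ENSSSCG00000001229 had larger slopes under this model, 0.38 and 0.36 log2, and in Landrace smaller ones, −0.34 and −0.32. SLA-DOA, which had differed most between breeds, still differed by 0.68 ± 0.24 log2.

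Endothelial markers, which stand for the vessel walls, differed between the breeds: all 4 tested were lower in Landrace by edgeR at FDR 0.1, with a median of −0.98 log2, beside 33.1% of all genes called in either direction, 1955 of those 3692 genes being lower. The 2 with the smallest p were KDR, a receptor for vascular growth factor, at −1.48 ± 0.22 log2 and CDH5, the adhesion protein of vessel walls, at −0.95 ± 0.16 log2. Of the 14 leukocyte markers 1 passed, a smaller share than the 33.1% of all genes. It was CSF1R, a macrophage growth factor receptor, with a Landrace minus Duroc difference of −0.92 ± 0.40 log2 (FDR 0.089), and C1QB, a complement gene of macrophages, had the next smallest p at 0.69 ± 0.32 log2 (FDR 0.11). The fibre markers ACTA1 and CKM were both higher in Landrace, at 0.38 ± 0.11 log2 (FDR 0.012) and 0.24 ± 0.093 log2 (FDR 0.055). The part of these cell types in the members' values was not tested beyond the leukocyte covariate.

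The members were also compared from pig to pig. SLA-DRA, SLA-DMA, SLA-DMB, SLA-DOA and CD74 correlated with each other in all 10 pairs, with r from 0.56 to 0.92 over 41 pigs after removal of breed means, and the closest pair was SLA-DRA with SLA-DMB. TAP1 and ENSSSCG00000001229 correlated with each other (r = 0.80) and with those 5 (r from 0.56 to 0.75). Their pairs with those 5 ran from 0.23 to 0.81 within Duroc alone and from 0.61 to 0.79 within Landrace alone. Over all pigs r was from 0.18 to 0.35 for RFX5 and from −0.27 to 0.44 for CIITA against the same 5, and r = −0.097 between them. These correlations are a description of libraries that share RIN, batch and scaling. After removal of RIN, age and batch the class II pairs ranged from 0.67 to 0.91 and the pairs of CIITA with those 5 from −0.078 to 0.27, and CIITA with RFX5 had r = −0.38. Within batches the pairs of CIITA with those 5 ran from 0.26 to 0.88 in batch 2, from −0.49 to 0.51 in batch 3 and from −0.094 to 0.56 in batch 5, the highest in each being CIITA with CD74. The pairs of RFX5 with those 5 ran from −0.13 to 0.18, from 0.053 to 0.57 and from 0.018 to 0.40 in the same batches.

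**Figure D5:**
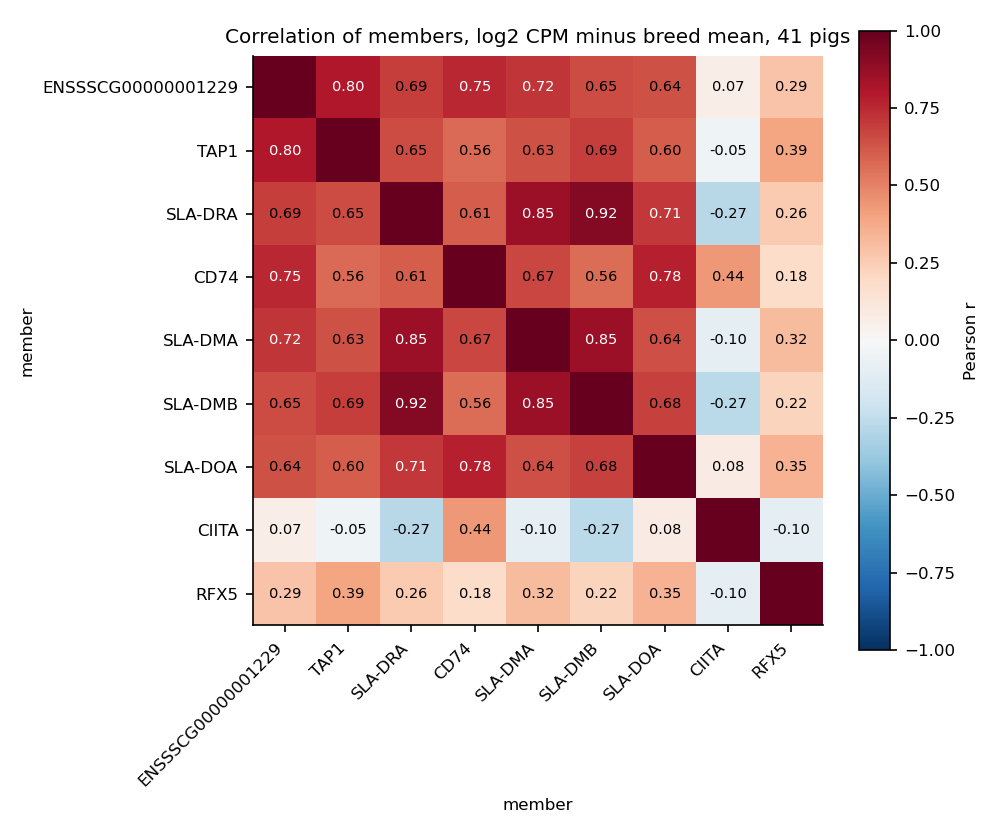
Pearson r between members over 41 pigs, from log2 CPM minus the breed mean, on a colour scale from −1 to 1. The class II genes, TAP1 and ENSSSCG00000001229 form a block of r from 0.56 to 0.92, and the rows of CIITA and RFX5 are pale.

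Over the 11137 other genes that passed the filter, the 5 closest to SLA-DRA in this measure were ENSSSCG00000001456 (r = 0.96), ENSSSCG00000013144 (r = 0.89), SLA-DQB1 (r = 0.86), IL10RA (r = 0.86) and ENSSSCG00000016262 (r = 0.83). SLA-DQB1 is the beta chain of another class II molecule and IL10RA a receptor chain for interleukin 10. The 5 closest to ENSSSCG00000001229 were ENSSSCG00000004687 (r = 0.85), PSMB8 (r = 0.83), TAP2, NMI and ITGAL (r = 0.78 each). PSMB8 is a subunit of the immunoproteasome, which cuts peptides for class I, and TAP2 is the partner of TAP1. Their fitted slopes on FCR ran from 0.14 to 0.59 log2 in Duroc and from −0.55 to −0.20 log2 in Landrace. As these genes were picked for following 2 members in the same pigs, and those members were listed with their slopes known, the shared signs carry no weight as a test. Of all genes tested in both breeds 28.1% had them.

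RIN and age played no part in the choice of the members, so their terms can be tested. CIITA fell by 0.67 log2 per RIN unit (−0.67 ± 0.088, FDR 2.8e-07) and CD74 by 0.65 log2 (−0.65 ± 0.13, FDR 0.00015) by edgeR over 41 pigs. These were 2 of 9 members, where 51.8% of all genes passed. The highest CIITA levels of each breed were in pigs of low RIN, 85.7 CPM in a Landrace pig of RIN 6.6 and 79.9 CPM in a Duroc pig of RIN 7.0, and the highest CD74 level of 394 CPM was in the Landrace pig of RIN 6.5. Both calls held without the 2 Landrace pigs of RIN below 7, with −0.64 log2 (FDR 0.00026) for CIITA and −0.50 log2 (FDR 0.049) for CD74.

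Within batches 2, 3 and 5 CIITA sloped by −0.63, −0.58 and −0.72 log2 per RIN unit, whereas CD74 gave −0.69, 0.12 and −0.78 log2 and so did not hold in batch 3. The other members had RIN slopes from −0.32 to 0.11 log2 and did not pass in the reported fit, with ENSSSCG00000001229 nearest at −0.32 ± 0.16 log2 (FDR 0.105). With the leukocyte covariate it passed, at −0.30 ± 0.14 log2 (edgeR, FDR 0.086). Scaling by library size alone raised the median RIN slope of all genes to 0.30 log2. CIITA and CD74 stayed negative and called under it, at −0.35 and −0.32 log2, and SLA-DRA and RFX5 were then called as positive, at 0.42 log2 each. For age, 0 of 9 members passed in edgeR against 1.76% of all genes, 0 had an unadjusted p below 0.05, and DESeq2 and limma called 0 as well.

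Around the members, 55 of 75 listed genes of the MHC pathways were tested, after 59 were found and without the members. For breed 11 passed FDR 0.1 in edgeR, 3 higher and 8 lower in Landrace, beside 33.1% of all genes tested, with a median difference of 0.021 log2 over all 55. In peptide supply and loading for class I, CALR and PDIA3, a chaperone and its partner in the loading complex, were lower in Landrace, with differences of −0.38 ± 0.085 log2 (FDR 0.0013) and −0.32 ± 0.11 log2 (FDR 0.027), and PSME2, a proteasome activator, was higher by 0.76 ± 0.33 log2 (FDR 0.085). The level of PSME2 was low, with medians of 0.44 CPM in Duroc and 0.62 CPM in Landrace. In class II processing CTSD and LGMN, both lysosomal proteases, were lower, at −0.60 ± 0.13 log2 (FDR 0.00088) and −0.36 ± 0.14 log2 (FDR 0.063).

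Of 11 tested transcriptional regulators of MHC genes, 4 passed for breed, a share near the 33.1% of all genes. NFYC and RFXANK, which bind class II promoters with RFX5, were higher in Landrace by 0.29 ± 0.082 log2 (FDR 0.010) and 0.24 ± 0.091 log2 (FDR 0.046). NLRC5, the class I counterpart of CIITA, was lower, at −0.49 ± 0.22 log2 (FDR 0.089), and so was CREB1, at −0.30 ± 0.13 log2 (FDR 0.078). Among class I relatives HFE, which regulates iron uptake, was lower, at −0.37 ± 0.16 log2 (FDR 0.092), and among 21 interferon genes OAS2, an antiviral enzyme, at −0.75 ± 0.26 log2 (FDR 0.031). GBP1, the interferon gene with the next smallest p, differed by 1.49 ± 0.75 log2 (FDR 0.14), and MR1 and SLA-DQB1 by 0.23 and −0.070 log2.

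On FCR none of the pathway genes passed in edgeR, DESeq2 or limma in either breed. In edgeR 5 of 50 in Duroc and 22 of 55 in Landrace had an unadjusted p below 0.05, all 5 with a slope above 0 and all 22 with one below 0, beside 3.25% and 3.01% of all genes in those directions. Of the 50 tested in both breeds 39 carried the signs of the members, above 0 in Duroc and below 0 in Landrace, beside 28.1% of all genes. The list medians were 0.16 log2 in Duroc and −0.17 log2 in Landrace. In the 11 class I loading genes tested in Duroc every slope was above 0, with a median of 0.17 log2, and in Landrace 11 of 12 were below 0, with a median of −0.29 log2, beside 57.9% of all genes above 0 in Duroc and 50.15% below 0 in Landrace. The lists were chosen with earlier results of these pigs known, so these counts and medians carry no weight as a test.

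Single genes of these lists gave the following values. PSMB8 sloped by 0.24 ± 0.14 log2 in Duroc and −0.55 ± 0.19 log2 in Landrace, and SLA-DQB1 by 0.27 ± 0.10 and −0.30 ± 0.11 log2. NLRC5 had slopes of 0.27 ± 0.11 and −0.22 ± 0.097 log2. CXCL9, a chemokine induced by interferon gamma, had 0.71 ± 0.24 and −0.61 ± 0.38 log2, and USP18, which damps interferon signalling, 0.32 ± 0.15 and −0.44 ± 0.16 log2. CTSS, the protease that trims the invariant chain, had 0.29 ± 0.099 and −0.16 ± 0.080 log2. MARCHF1, which removes class II from the surface, was tested in Landrace only, at −0.37 ± 0.15 log2, and FCGRT, which recycles antibodies, was at −0.054 ± 0.056 and −0.047 ± 0.051 log2.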

How the data were processed

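The deposited files hold raw read counts per gene and pig. The authors trimmed the reads with Trimmomatic 0.39, aligned them with STAR 2.7.1a to Sscrofa11.1 and counted pairs on Ensembl release 96 genes during alignment. The library was unstranded, so the unstranded column was used and the sum of both stranded columns was an alternative. Multi-mapped and ambiguous pairs (6.79% to 8.89% of pairs) are not in the counts of any gene. Genes that overlap another on the opposite strand lose pairs this way: summing both stranded columns gave a median of 103.3% of the used count for CIITA, 103.5% for CD74 and 105.5% for TAP1, and 100% to 100.1% for the other members.

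Symbols came from a gene table (14857 of 25880 identifiers matched). Per the RefSeq table of the same build, SLA-DRA lies on chromosome 7 (24825037 to 24830650), TAP1 at 25062772 to 25071989, SLA-DMB at 25119278 to 25125089, SLA-DMA at 25133494 to 25137928 and SLA-DOA at 25178866 to 25182665 on the same chromosome, RFX5 on chromosome 4 (97901955 to 97913283), CIITA on chromosome 3 (32171706 to 32230775) and CD74 on chromosome 2 (151402210 to 151409924).

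Counts were fitted with edgeR 4.0.16 (R 4.3.3), with TMM scaling, filterByExpr (minimum count 10, minimum total 15) and the quasi-likelihood test, on FCR, RIN, age, breed and batch, and in each breed apart without breed. FDR is Benjamini-Hochberg over all genes tested, and 0.1 was the threshold. The SE of a log2 value is its size divided by the root of the F statistic. CPM values are TMM-scaled, and log2 CPM used a prior count of 2. Alternatives were DESeq2 1.42.0, limma 3.58.1 with voom, other filters and scalings, other covariates and pigs left out. The fits were tested on simulated counts. Nothing states that a pig was sampled more than once, so each library stands for 1 pig.

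The members and lists were chosen with earlier results of these data known. Named genes were every member and, taken from each list, the 2 genes with the smallest p for breed and the 1 with the smallest p for FCR in each breed, and the 5 genes closest to SLA-DRA and to ENSSSCG00000001229. All other genes called for breed in the pathway lists are named too, after their values were seen. The files name their samples singly, and 0 columns of per-sample values were left unassigned. Some results of the named gene rule are not reported here.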

Additional observations from a re-analysis of the deposited data

How the results depend on the processing

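For breed, the count of members called was 0 in the reported model and 1 with DESeq2, limma, batch as a number, the leukocyte covariate and without age (SLA-DOA each time), and 1 with library size only (ENSSSCG00000001229). In models added after the data were seen it was 2 with no covariates (SLA-DOA and SLA-DMA) and 3 without batch (those 2 and TAP1). Of all 11146 genes, 3692 were called for breed in the reported model, 2209 with no covariates and 2434 without batch. In the other settings named that number lay between 3109 and 4130. For FCR in Landrace the count of members was 1 with DESeq2 against 0, for the FCR by breed term 1 with DESeq2 against 0, and for RIN 4 with library size only and 3 with the leukocyte covariate against 2. For RIN 7107 of all genes were called with library size only and 5933 with the leukocyte covariate, against 5775. The 11 pathway genes called for breed became 7 with no filter on low counts and 7 without age, where 3985 of 20225 and 3109 of 11146 genes were called. The cause was not tested for any of these. Outside the pigs left out, 108 of 108 Duroc slopes, 114 of 117 Landrace slopes and 100 of 108 breed differences of members kept their sign, and the 3 Landrace exceptions were all of CIITA. The leukocyte correlations of TAP1, ENSSSCG00000001229 and CD74 missed a permutation p of 0.05 within the 13 Duroc pigs alone (r = 0.28, 0.24 and 0.50). No paired analysis was possible because the breeds hold different pigs and replicate numbers only name them. SLA-DOA had the fewest reads of the members, down to 15 in a pig.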
